A study of Mus musculus with 24 samples.

Results

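The iron handling genes described here are 10 genes of iron uptake, reduction, storage, export and control, named by symbol and read from every column of the deposited count table: Steap3, Trf, Tfrc, Fth1, Ftl1, Slc40a1, Slc11a2, Hmox1, Ireb2 and Cp. All 10 were among the 21965 genes listed and among the 17167 genes tested. The libraries came from OL-Ribotag mice, in which a tamoxifen-activated CreERT2 under an OL gene promoter switches on an HA-tagged ribosomal protein, Rpl22-HA, in mature oligodendrocytes (OLs). All mice, naive controls included, carried both alleles and received tamoxifen. Female mice that were 10 to 12 weeks old received a moderate contusion of the spinal cord (50 kdyn) at thoracic level T9, or none (naive), and cord tissue was taken at day post-injury (dpi) 2, 10 or 42. That age is the labels', and the study's methods give a younger one. From each homogenate, total cord RNA and the RNA bound to HA-tagged ribosomes (the OL translatome) were sequenced, which gave 8 groups of 3 libraries, each library from a pool of 2 mice. The naive tissue was collected together with the dpi 42 tissue, so the dpi 2 and dpi 10 mice were younger than the naive mice at collection. That Cre is also active in Schwann cells, and in bulk RNA a smaller number of cells of a type cannot be told apart from less RNA per cell.

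Cells take up iron bound to transferrin (Trf) through the transferrin receptor (Tfrc). In the endosome the ferric iron is reduced by Steap3, a metalloreductase, and is carried into the cytosol by the divalent metal transporter Slc11a2. Iron that is not used is stored in ferritin, a shell of heavy (Fth1) and light (Ftl1) chains, or leaves the cell through ferroportin (Slc40a1), after which it is oxidised by ceruloplasmin (Cp). Heme oxygenase 1 (Hmox1) opens the heme ring and frees its iron, which is a main source of iron where blood enters tissue. Iron regulatory proteins, of which Ireb2 encodes the second, bind stem-loops called iron-responsive elements (IREs): at the 5′ end of an mRNA they hold back translation, and at the 3′ end of the Tfrc mRNA they protect it from decay. OLs are rich in iron and ferritin and are a main site of transferrin synthesis in the central nervous system.

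IRE-like stem-loops were looked for in the UTRs of the 10 genes, because such elements are the known binding sites of iron regulatory proteins. The search asked for an unpaired C, a stem of 5 base pairs with G-U pairs allowed, and the loop CAGTGN, on the transcribed strand of GRCm38 transcripts (GENCODE M21). It found 4 sites in the 3′ UTR of Tfrc, at chr16:32631219-32631248, chr16:32631598-32631627, chr16:32631663-32631692 and chr16:32631710-32631739 on the plus strand, and 1 site in the 5′ UTR of each of Fth1 (chr19:9982732-9982761, plus strand), Ftl1 (chr7:45459778-45459807, minus strand) and Slc40a1 (chr1:45925464-45925493, minus strand). None was found in the UTRs of the other 6 genes, which says only that this pattern is not in those annotated UTRs. Over the 21803 genes searched, 0.142% held a match in the 5′ UTR and 0.592% in the 3′ UTR. The sequences run 5′ to 3′ as the RNA reads, written with T, and the capitals mark the loop.
Tfrc site 1: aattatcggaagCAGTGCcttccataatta
Tfrc site 2: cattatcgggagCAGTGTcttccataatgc
Tfrc site 3: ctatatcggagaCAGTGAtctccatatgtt
Tfrc site 4: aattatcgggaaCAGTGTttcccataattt
Fth1: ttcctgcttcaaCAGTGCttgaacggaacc
Ftl1: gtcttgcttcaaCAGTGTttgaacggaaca
Slc40a1: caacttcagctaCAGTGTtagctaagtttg
Of these 4 genes, Tfrc fell in the OL translatome after SCI, Ftl1 and Slc40a1 rose, and Fth1 was not called, as their values show further on.

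The libraries held 25840127 to 32987841 counts each. The summed level of 7 OL markers was 73001 to 92601 CPM (counts normalised to library size with TMM scaling) in naive OL libraries and 15768 to 18647 CPM in naive total RNA. Both libraries of the second dpi 2 pool held 2414 and 2604 counts of Y-linked genes against 0 to 13 in the other 22 libraries, although the mice were labelled female, so results at dpi 2 are also given without that pool where a call changed. The third naive pool stood apart: the sum of 3 Schwann cell markers (Prx, Ncmap, Egfl8) was 91.9 CPM in its OL library against 1.89 and 1.52 CPM in the other two, and 29 CPM in its total RNA library against 2.75 and 2.26 CPM. That OL library also had the highest naive OL sums of 5 astrocyte markers (4488 CPM against 983 and 791) and of 3 markers of OL precursor cells (30.9 CPM against 13.4 and 10.4). In total RNA the same pool had the lowest naive sums of these 2 lists (2266 and 88.1 CPM). Results that rest on the third naive OL library are given with and without it.

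Compared per kilobase of exon, ferritin heavy chain was the most abundant of the 10 mRNAs in every group. In naive OL libraries the mean level was 4401 CPM per kb for Fth1, 683 for Trf, 139 for Ftl1, 42.4 for Tfrc, 11 for Ireb2, 10.4 for Slc11a2, 5.66 for Hmox1, 0.863 for Cp, 0.640 for Steap3 and 0.144 for Slc40a1 (n = 3). The libraries of Ireb2 and Slc11a2 overlapped, as did those of Cp and Steap3, and the other neighbours in this order did not overlap. At dpi 2 Steap3 stood at 26.1 ± 8.42 CPM per kb (SD, n = 3) and Hmox1 at 102 ± 28.6, so that Steap3 then overlapped Tfrc (27.2 ± 3.50) and Hmox1 lay above both. In naive total RNA, Ftl1 (122.7 ± 10.1 CPM per kb) stood above Trf (65.8 ± 8.09), the reverse of their order in OL libraries.

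**Figure D1:**
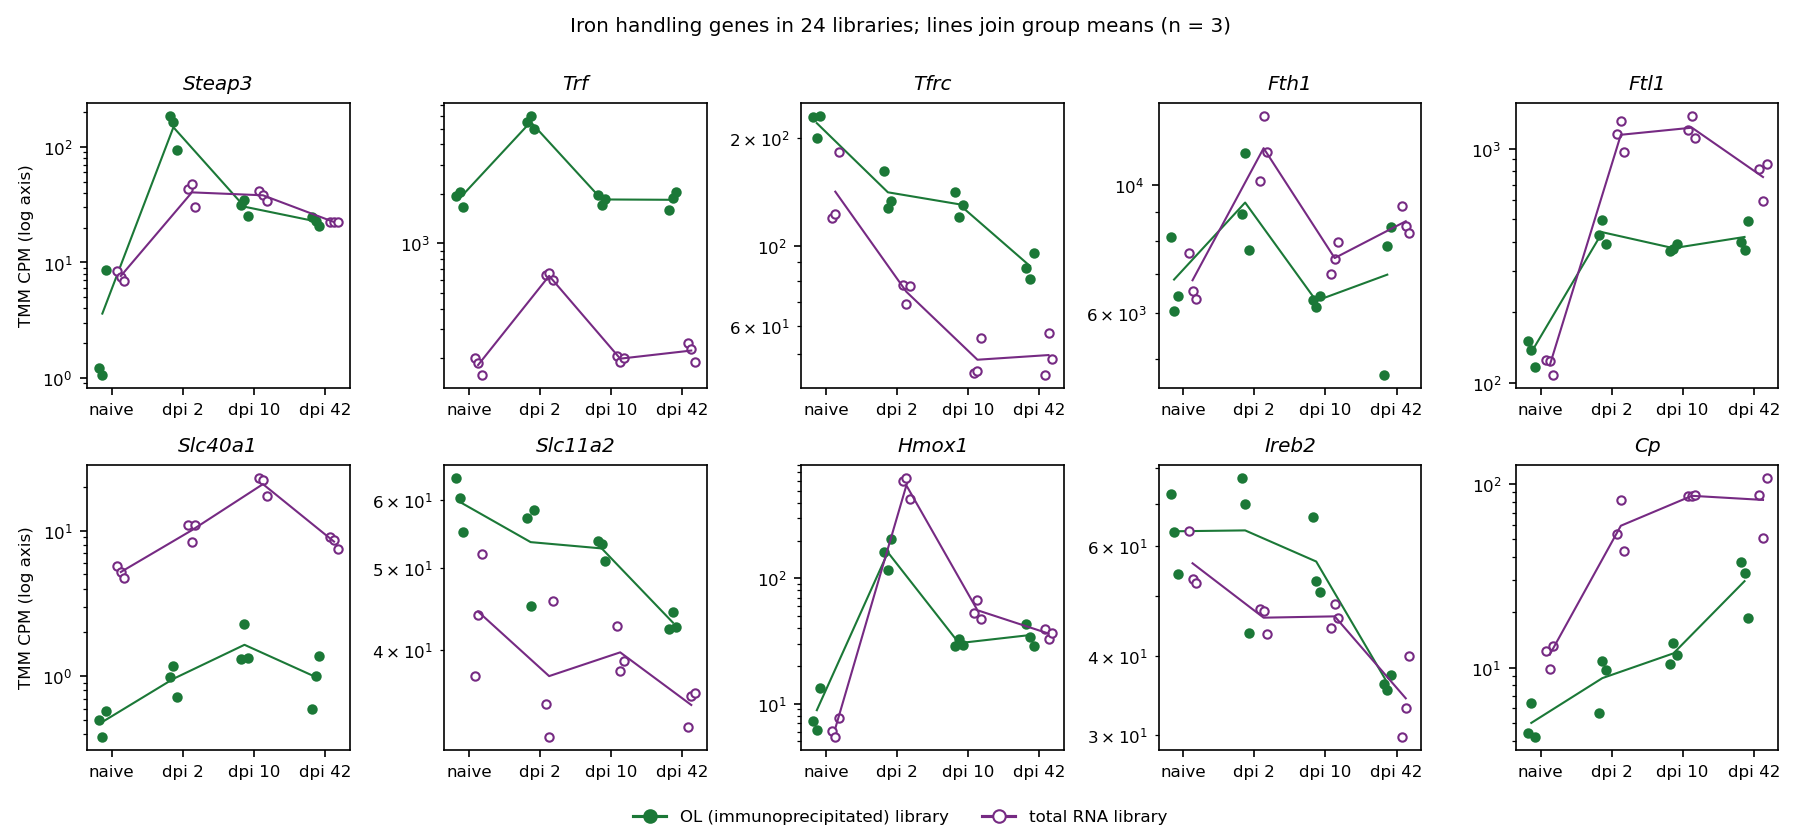
TMM-scaled CPM of the 10 genes in each of the 24 libraries on log axes that differ between panels; filled points are OL libraries, open points total RNA libraries, and lines join the group means (n = 3). Steap3, Trf and Hmox1 peak at dpi 2 in OL libraries, Tfrc is highest in naive libraries, and Trf is higher in every OL library than in every total RNA library.

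After SCI, Steap3, Ftl1, Slc40a1, Hmox1 and Cp rose in the OL translatome at all 3 time points, Tfrc fell at all 3, and Trf rose at dpi 2 alone. At dpi 2, 6 of the 10 genes rose and 1 fell at an adjusted p under 0.05 (edgeR quasi-likelihood test, Benjamini-Hochberg over all genes tested), where 18.4% of all genes tested rose and 20% fell. At dpi 10, 5 rose and 1 fell, against 9.62% and 8.59% of all genes. At dpi 42, 5 rose and 3 fell (Tfrc, Slc11a2 and Ireb2), against 16.2% and 16.9%. The median log2 fold change (Log2FC) of the 10 genes against naive was 0.89 at dpi 2, 0.62 at dpi 10 and 0.52 at dpi 42, beside 0 for all genes at each time.

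In total cord RNA, Steap3, Ftl1, Hmox1 and Cp rose and Tfrc fell at all 3 time points, and Trf and Fth1 rose at dpi 2. At dpi 2, 7 genes rose and Tfrc fell (background 16.4% risen and 20.8% fallen), at dpi 10, 5 rose and Tfrc fell (13.9% and 18.2%), and at dpi 42, 4 rose while Tfrc and Ireb2 fell (10.4% and 12.1%). Median Log2FCs were 1.38, 1.07 and 0.52 in that order, beside -0.10, -0.10 and -0.08 for all genes. The 3 comparisons in each kind of RNA share their naive libraries.

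**Figure D2:**
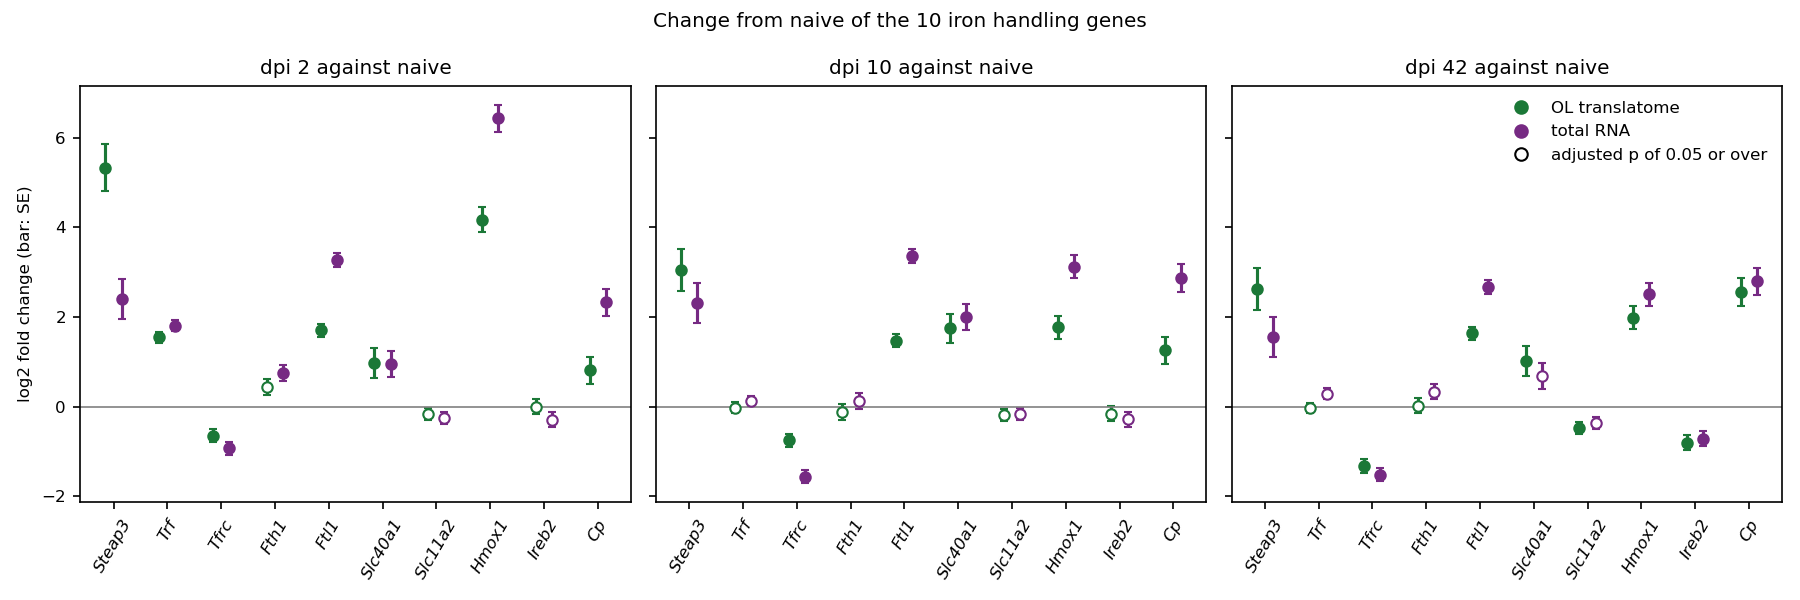
Log2 fold change from naive (y axis, with standard error bars, n = 3 against 3) of each of the 10 genes in the OL translatome (green) and in total RNA (purple) at dpi 2, 10 and 42; open points had an adjusted p of 0.05 or over. Steap3 lies higher in the OL translatome than in total RNA at dpi 2, while Ftl1, Hmox1 and Cp lie higher in total RNA at dpi 2 and dpi 10.

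Steap3, the endosomal ferrireductase, had the largest rise of the 10 genes in the OL translatome. Its OL libraries held 1.22, 1.06 and 8.57 CPM when naive, 185, 163 and 94.1 CPM at dpi 2, 31.1, 34.9 and 25.0 CPM at dpi 10, and 24.5, 22.8 and 20.7 CPM at dpi 42. Every library from injured mice lay above the highest naive library, which was that of the third naive pool. The Log2FC against naive was 5.33 ± 0.52 (SE) at dpi 2 (40.3-fold, adjusted p = 7.6e-08), 3.05 ± 0.48 at dpi 10 (adjusted p = 0.00011) and 2.63 ± 0.47 at dpi 42 (adjusted p = 0.0002). Without the third naive OL library these were 6.95, 4.73 and 4.25, and Steap3 remained called each time. With only the naive and dpi 42 OL libraries fitted, the dpi 42 call of Steap3 was lost (2.65, adjusted p = 0.0528).

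In total RNA, Steap3 stood at 8.39, 7.54 and 6.97 CPM in naive libraries, 42.8, 48.1 and 30.1 CPM at dpi 2, 41.7, 38.4 and 34.0 CPM at dpi 10 and 22.3, 22.3 and 22.4 CPM at dpi 42. The naive libraries did not overlap with any injured group. The Log2FC was 2.40 ± 0.45 (5.28-fold, adjusted p = 0.00023) at dpi 2, 2.32 ± 0.45 (adjusted p = 0.00042) at dpi 10 and 1.55 ± 0.44 (adjusted p = 0.0146) at dpi 42. The dpi 42 call was lost when the second or the third naive total RNA library was left out.

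The level of Steap3 in OL relative to total RNA differed between naive cord and dpi 2. Within pools, the OL level divided by the total RNA level was 0.145, 0.140 and 1.23 in naive cord, 4.33, 3.39 and 3.12 at dpi 2, 0.745, 0.908 and 0.735 at dpi 10, and 1.10, 1.02 and 0.921 at dpi 42. The first and second naive pools thus had less Steap3 in OL than in total RNA, and all dpi 2 pools had more. The OL enrichment was -1.06 ± 0.46 on the log2 scale in naive cord (adjusted p = 0.0571, and -1.60 with adjusted p = 0.0103 with tissue pool as a block), and -2.58 (adjusted p = 1.17e-07) without the third naive OL library. At dpi 2 it was 1.87 ± 0.44 (adjusted p = 0.0011). The difference between the OL and the total RNA change (differential OL enrichment) was 2.93 ± 0.63 at dpi 2 (7.64-fold, adjusted p = 0.0033), 0.74 ± 0.63 at dpi 10 (adjusted p = 0.597) and 1.08 ± 0.63 at dpi 42 (adjusted p = 0.346). Without the third naive OL library the last 2 values were 2.29 (adjusted p = 0.000228) and 2.6 (adjusted p = 7.67e-05), so that 1 library decided whether Steap3 was called at dpi 10 and dpi 42.

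Of the 3 Schwann cell markers, 1 rose in the OL translatome at dpi 2, 2 at dpi 10 and 2 at dpi 42. Their summed level in OL libraries was 33.9, 109 and 56.0 CPM at dpi 2, 157, 96.1 and 111 CPM at dpi 10, and 128, 132 and 154 CPM at dpi 42, in the replicate order of the Steap3 values above. All 3 markers were detected in each group. Steap3 was highest at dpi 2, where the median marker sum was lower than at dpi 10 or dpi 42 while the libraries of dpi 2 and dpi 10 overlapped, and the third naive OL library had a marker sum within the dpi 2 range at a Steap3 level of 8.57 CPM. Their part in the Steap3 result was not tested.

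Trf encodes transferrin, the carrier that OLs make and secrete. Its OL libraries held 1932, 2041 and 1658 CPM when naive, 5510, 5982 and 4969 CPM at dpi 2, 1980, 1713 and 1853 CPM at dpi 10, and 1592, 1885 and 2042 CPM at dpi 42. The dpi 2 libraries stood clear of all others, and the naive, dpi 10 and dpi 42 libraries overlapped. The Log2FC against naive was 1.55 ± 0.12 at dpi 2 (2.92-fold, adjusted p = 3.7e-09), -0.02 ± 0.12 at dpi 10 (adjusted p = 0.984) and -0.03 ± 0.12 at dpi 42 (adjusted p = 0.943).

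Total RNA showed a rise of Trf of similar size at dpi 2, from 200, 186 and 157 CPM to 643, 658 and 597 CPM (Log2FC 1.81 ± 0.12, adjusted p = 8.6e-10). At dpi 10 and dpi 42 the total RNA Log2FCs were 0.13 ± 0.12 (adjusted p = 0.449) and 0.29 ± 0.12 (adjusted p = 0.0847). Both values of Trf passed the threshold with library sizes alone (adjusted p = 0.0254 and 0.00485) and with only the groups compared (0.0106 and 0.0147), and that at dpi 42 also with DESeq2's Wald test (0.0259), with another TMM reference (0.0268) and without the third dpi 42 library (0.0362). Trf was higher in the OL than in the total RNA library of its pool in all 12 pools, by 6.99-fold to 11-fold, which made it the most OL-enriched of the 10 genes in every condition. The differential OL enrichment was -0.26 ± 0.17 at dpi 2 (adjusted p = 0.364) and -0.32 ± 0.17 at dpi 42 (adjusted p = 0.281). Without the third naive OL library these were -0.55 (adjusted p = 0.031) and -0.56 (adjusted p = 0.0388), both called, and the dpi 42 value was also called without the third dpi 42 OL library (adjusted p = 0.0315) or with another TMM reference (0.0459). The span of Trf, introns included, overlaps that of Gm20425, a gene on the same strand.

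Tfrc, the receptor for iron-loaded transferrin, fell in both kinds of RNA. Its OL libraries held 229, 200 and 231 CPM when naive, 162, 128 and 134 CPM at dpi 2, 142, 120 and 131 CPM at dpi 10, and 86.8, 81.0 and 95.9 CPM at dpi 42. All injured libraries lay below all naive ones, and those at dpi 42 were below every other OL library. The Log2FC was -0.64 ± 0.15 (adjusted p = 0.0015) at dpi 2, -0.75 ± 0.15 (adjusted p = 0.0011) at dpi 10 and -1.32 ± 0.15 (adjusted p = 1.6e-06) at dpi 42. With an offset for gene length and GC content the dpi 2 value was -0.30 (adjusted p = 0.113).

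In total RNA, Tfrc stood at 119, 122.5 and 184 CPM in naive libraries and at 77.7, 68.8 and 77.1 CPM at dpi 2, 44.3, 44.9 and 55.3 CPM at dpi 10, and 43.6, 57.0 and 48.3 CPM at dpi 42. The Log2FCs were -0.93 ± 0.15 (adjusted p = 3.8e-05), -1.56 ± 0.15 (adjusted p = 1.2e-07) and -1.51 ± 0.15 (adjusted p = 3.1e-07). Tfrc was OL-enriched in all 4 conditions, although with library sizes alone the calls in naive cord (0.12, adjusted p = 0.492) and at dpi 42 (0.32, adjusted p = 0.0729) were lost. The fall at dpi 10 was smaller in the OL translatome by 0.81 ± 0.21 on the log2 scale (adjusted p = 0.0194). That difference was lost on leaving out any of 9 of the 12 libraries involved, the third naive library of either kind of RNA among them (adjusted p = 0.0611 for OL and 0.0674 for total RNA).

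Slc11a2, the transporter that carries ferrous iron out of endosomes, changed little. Naive OL libraries held 63.7, 60.4 and 55.0 CPM, and OL libraries at dpi 42 held 42.4, 44.4 and 42.6 CPM, below all naive ones (Log2FC -0.47 ± 0.13, adjusted p = 0.0102). The OL Log2FC was -0.16 ± 0.13 at dpi 2 (adjusted p = 0.393) and -0.18 ± 0.13 at dpi 10 (adjusted p = 0.399), and no total RNA change was called, though that at dpi 2 was without the third dpi 2 library (-0.42, adjusted p = 0.0176) and that at dpi 42 without the first naive library (-0.47, adjusted p = 0.0248). The dpi 42 call was lost with library sizes alone (adjusted p = 0.0740) or with the length and GC offset (adjusted p = 0.0520). Part of the span of Slc11a2, introns included, lies opposite Gm5475. Overlap of exons was not checked, so with no stated strand setting it is not known whether their reads mix.

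Both ferritin chains were detected at high levels, but they moved differently. Ftl1, the light chain, stood at 150, 137 and 117 CPM in naive OL libraries, at 429, 496 and 392 CPM at dpi 2, at 366, 371 and 389 CPM at dpi 10, and at 399, 368 and 490 CPM at dpi 42. Every injured OL library lay above every naive one, and the injured libraries spanned 366 to 496 CPM. The Log2FC was 1.70 ± 0.15 (adjusted p = 1.9e-08), 1.48 ± 0.15 (adjusted p = 5.5e-07) and 1.64 ± 0.15 (adjusted p = 1.2e-07).

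The rise of Ftl1 was larger in total RNA, from 125, 124 and 107 CPM to 1156, 1315 and 964 CPM at dpi 2, 1199, 1380 and 1104 CPM at dpi 10, and 814, 597 and 855 CPM at dpi 42. The Log2FCs were 3.27 ± 0.16 (adjusted p = 5e-12), 3.37 ± 0.16 (adjusted p = 4.1e-12) and 2.67 ± 0.16 (adjusted p = 1.7e-10). The differential OL enrichment was therefore negative at each time: -1.56 ± 0.21 (adjusted p = 3.8e-05), -1.89 ± 0.21 (adjusted p = 8.4e-06) and -1.03 ± 0.21 (adjusted p = 0.0037). Ftl1 was about equal in OL and total RNA of naive pools, at ratios of 1.09 to 1.20, and lower in OL RNA in all injured pools, at 0.269 to 0.668. Without the third naive OL library its naive OL enrichment went from 0.18 to 0.44 on the log2 scale and was called (adjusted p = 0.0261).

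Fth1, the heavy chain that oxidises iron, stood at 8120, 6038 and 6414 CPM in naive OL libraries and 8899, 11376 and 7709 CPM at dpi 2. These groups overlapped, and the Log2FC was 0.44 ± 0.18 (adjusted p = 0.0510), past the threshold with DESeq2's Wald test (adjusted p = 0.0176). Fth1 was also called there without the first naive or the third dpi 2 OL library. In total RNA it rose from 7626, 6548 and 6339 CPM to 10155, 13194 and 11428 CPM at dpi 2 (Log2FC 0.76 ± 0.18, adjusted p = 0.0016), a call that the length and GC offset removed (adjusted p = 0.228). At dpi 10 and dpi 42 the Log2FCs of Fth1 were -0.12 and 0.03 in the OL translatome and 0.13 and 0.34 in total RNA, none of them called, though both total RNA values were with only the groups compared (adjusted p = 0.00247 and 0.00152). The annotation names 2 pseudogenes of Fth1 and 3 of Ftl1, of which 0 and 1 are in the count table. Reads from such copies may make both ferritin levels uncertain, which was not tested. Part of Ftl1 lies opposite Gm10252.

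Slc40a1, the iron exporter ferroportin, was the least OL-enriched of the 10 genes, and its OL counts were low. Naive OL libraries held 12, 9 and 15 counts (0.504, 0.381 and 0.574 CPM), against 26, 29 and 19 counts at dpi 2, 34, 60 and 35 counts at dpi 10, and 17, 27 and 35 counts at dpi 42. The OL Log2FC was 0.97 ± 0.34 at dpi 2 (adjusted p = 0.0267), 1.75 ± 0.33 at dpi 10 (adjusted p = 0.00078) and 1.01 ± 0.34 at dpi 42 (adjusted p = 0.0242). All 3 calls were lost when the OL naive libraries were fitted with those of 1 time point only (adjusted p = 0.383, 0.0733 and 0.393), and at dpi 2 the call was lost without the pool with Y-linked reads (0.81, adjusted p = 0.101). Leaving out any of 4 of the 6 libraries compared also removed the calls at dpi 2 and at dpi 42.

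In total RNA, Slc40a1 rose from 5.74, 5.16 and 4.69 CPM to 10.9, 8.35 and 10.9 CPM at dpi 2 and to 23, 22.2 and 17.3 CPM at dpi 10, and stood at 9.07, 8.66 and 7.46 CPM at dpi 42. The Log2FCs were 0.95 ± 0.29 (adjusted p = 0.0119), 2.00 ± 0.29 (adjusted p = 2.2e-05) and 0.69 ± 0.29 (adjusted p = 0.0914), and the dpi 2 call was lost without the third naive library. The dpi 42 value of Slc40a1 was called with DESeq2's Wald test (adjusted p = 0.0241), library sizes alone (0.0377) and only the groups compared (0.00516). The OL level was 0.0574 to 0.184 of the total RNA level over the 12 pools. The differential OL enrichment of Slc40a1 was 0.02 at dpi 2, -0.26 at dpi 10 and 0.32 at dpi 42, none of them called. Markers of microglia and macrophages had a median log2 OL enrichment of -3.77 in naive cord and -3.82, -3.56 and -3.73 at dpi 2, 10 and 42. The part of these cells in the Slc40a1 result was not tested.

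Cp encodes ceruloplasmin, the copper ferroxidase that works beside ferroportin, and in the cord it is known as an astrocyte product. Its OL libraries held 4.41, 6.43 and 4.17 CPM when naive, 5.67, 10.9 and 9.72 CPM at dpi 2, 10.5, 13.7 and 11.7 CPM at dpi 10, and 37.5, 32.6 and 18.6 CPM at dpi 42. The dpi 2 libraries overlapped with the naive ones, and those at dpi 42 stood above all others. The Log2FC was 0.81 ± 0.31 (adjusted p = 0.0423), 1.26 ± 0.31 (adjusted p = 0.0063) and 2.56 ± 0.31 (adjusted p = 3.9e-06). The dpi 2 call was lost without the pool with Y-linked reads (0.62, adjusted p = 0.141) and on leaving out any of 4 of the 6 libraries compared, the third naive one among them (0.63, adjusted p = 0.165).

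In total RNA, Cp rose from 12.4, 9.87 and 13.2 CPM to 53.2, 81.5 and 43.2 CPM at dpi 2, 85.7, 86.1 and 87.2 CPM at dpi 10, and 87.2, 50.6 and 108 CPM at dpi 42, with Log2FCs of 2.33 ± 0.30 (adjusted p = 3.6e-06), 2.87 ± 0.31 (adjusted p = 4.9e-07) and 2.80 ± 0.31 (adjusted p = 1.3e-06). The differential OL enrichment was -1.52 ± 0.42 at dpi 2 (adjusted p = 0.0189) and -1.61 ± 0.42 at dpi 10 (adjusted p = 0.0212). With tissue pool as a block both calls were lost (adjusted p = 0.0511 and 0.0545), as they were without the second naive total RNA library. The sum of 5 astrocyte markers in OL libraries was 983, 791 and 4488 CPM when naive, 2245, 817 and 6585 CPM at dpi 2, 1686, 5293 and 2109 CPM at dpi 10, and 10867, 8622 and 1655 CPM at dpi 42, in the replicate order of the Cp values. The sums stood in the order of Cp at dpi 10 and dpi 42, whereas in naive cord and at dpi 2 the OL library with the highest Cp had the lowest sum. 1 of these 5 markers rose in the OL translatome at dpi 42, and their part in the Cp result was not tested. Part of Cp lies opposite Hps3.

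Hmox1, the enzyme that releases iron from heme, had the largest change of the 10 genes in total RNA at dpi 2. Total RNA libraries held 6.07, 5.38 and 7.64 CPM when naive, 595, 631 and 425 CPM at dpi 2, 53.0, 66.9 and 46.9 CPM at dpi 10, and 39.7, 32.7 and 36.4 CPM at dpi 42. The dpi 2 libraries stood far above all others, and no injured library reached down to the naive range. The Log2FC was 6.43 ± 0.30 at dpi 2 (86.4-fold, adjusted p = 3.4e-12), 3.13 ± 0.26 at dpi 10 (adjusted p = 1.7e-08) and 2.51 ± 0.26 at dpi 42 (adjusted p = 4.6e-07).

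In the OL translatome, Hmox1 went from 7.27, 6.13 and 13.2 CPM to 161, 116 and 206 CPM at dpi 2, 28.9, 33 and 29.3 CPM at dpi 10, and 42.8, 34.2 and 28.8 CPM at dpi 42. The Log2FC was 4.17 ± 0.27 (18.1-fold, adjusted p = 3.3e-10), 1.77 ± 0.25 (adjusted p = 3.8e-05) and 1.99 ± 0.25 (adjusted p = 5.9e-06). The rise was smaller in OL than in total RNA by 2.26 ± 0.35 on the log2 scale at dpi 2 (differential OL enrichment -2.26, adjusted p = 0.00016) and by 1.35 ± 0.35 at dpi 10 (-1.35, adjusted p = 0.0193), the latter lost on leaving out the second naive or the second dpi 10 total RNA library. At dpi 42 the difference was -0.52 ± 0.35 (adjusted p = 0.429).

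Ireb2, which encodes an iron regulatory protein that binds IREs, stood at 72.7, 63.1 and 54.2 CPM in naive OL libraries and at 36.1, 35.4 and 37.4 CPM at dpi 42. The groups did not overlap, and the Log2FC was -0.80 ± 0.17 (adjusted p = 0.00087). In total RNA it fell from 63.3, 53.2 and 52.4 CPM to 29.7, 33.1 and 40.0 CPM (Log2FC -0.72 ± 0.17, adjusted p = 0.0035). Both calls were lost with the length and GC offset (-0.29, adjusted p = 0.198, and -0.32, adjusted p = 0.166). At dpi 2 and dpi 10 its Log2FC was 0.00 and -0.16 in the OL translatome and -0.29 and -0.28 in total RNA, none of them called.

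Markers of other cells moved in the same comparisons as the iron handling genes. All 8 markers of microglia and macrophages rose in both kinds of RNA at each time: their sum was 10.7 to 16.7 CPM in naive OL libraries, 70.3 to 91.6 CPM at dpi 2, 223 to 256 CPM at dpi 10 and 135 to 231 CPM at dpi 42, and in total RNA 182 to 212, 1253 to 1498, 3409 to 4666 and 1954 to 2951 CPM. Of 5 red blood cell genes, 4 rose at dpi 2 in each kind of RNA, and their sum went from 0.191 to 2.23 CPM in naive OL libraries to 6.35 to 24.9 CPM, and from 1.49 to 10.7 CPM in naive total RNA to 62.9 to 126 CPM. Of 4 endothelial markers, 3, 2 and 3 rose in OL at dpi 2, 10 and 42, and 3, 1 and 0 in total RNA, with sums of 4.29 to 4.97 CPM in naive OL libraries and 7.53 to 17.3 CPM after SCI, and of 81.9 to 103.0 CPM and 104 to 231 CPM in total RNA. Of 5 neuron markers, 5, 5 and 4 fell in total RNA, where their sum was 7274 to 7707 CPM when naive and 2933 to 5914 CPM after SCI. In OL 3, 4 and 3 fell and 1, 1 and 0 rose, with sums of 332 to 425 CPM when naive and 218 to 370 CPM after SCI. Of the 5 astrocyte markers, whose OL sums are given with Cp, none was called OL-depleted in naive cord, at dpi 2 or at dpi 42. At dpi 10, 1 was. Their median log2 OL enrichment was -0.28 in naive cord and -0.71, -0.86 and -0.25 at dpi 2, 10 and 42. No marker of these lists was at 0 in all libraries of a group. The part of these cells in the changes of the 10 genes, the falls of Tfrc and Ireb2 included, was not tested.

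Set against each other, the OL and total RNA changes differed in 4 of the 10 genes at dpi 2, where Steap3 changed more upward in OL RNA (background 8.06% of genes) and Ftl1, Hmox1 and Cp changed less (6.03%). At dpi 10, Tfrc fell less in OL RNA (4.57%) and Ftl1, Hmox1 and Cp rose less (3.09%). At dpi 42 no gene had a positive difference (4.37%) and Ftl1 alone had a negative difference (3.47%). By the column names, the OL and the total RNA library of a pool came from the same mice.

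**Figure D3:**
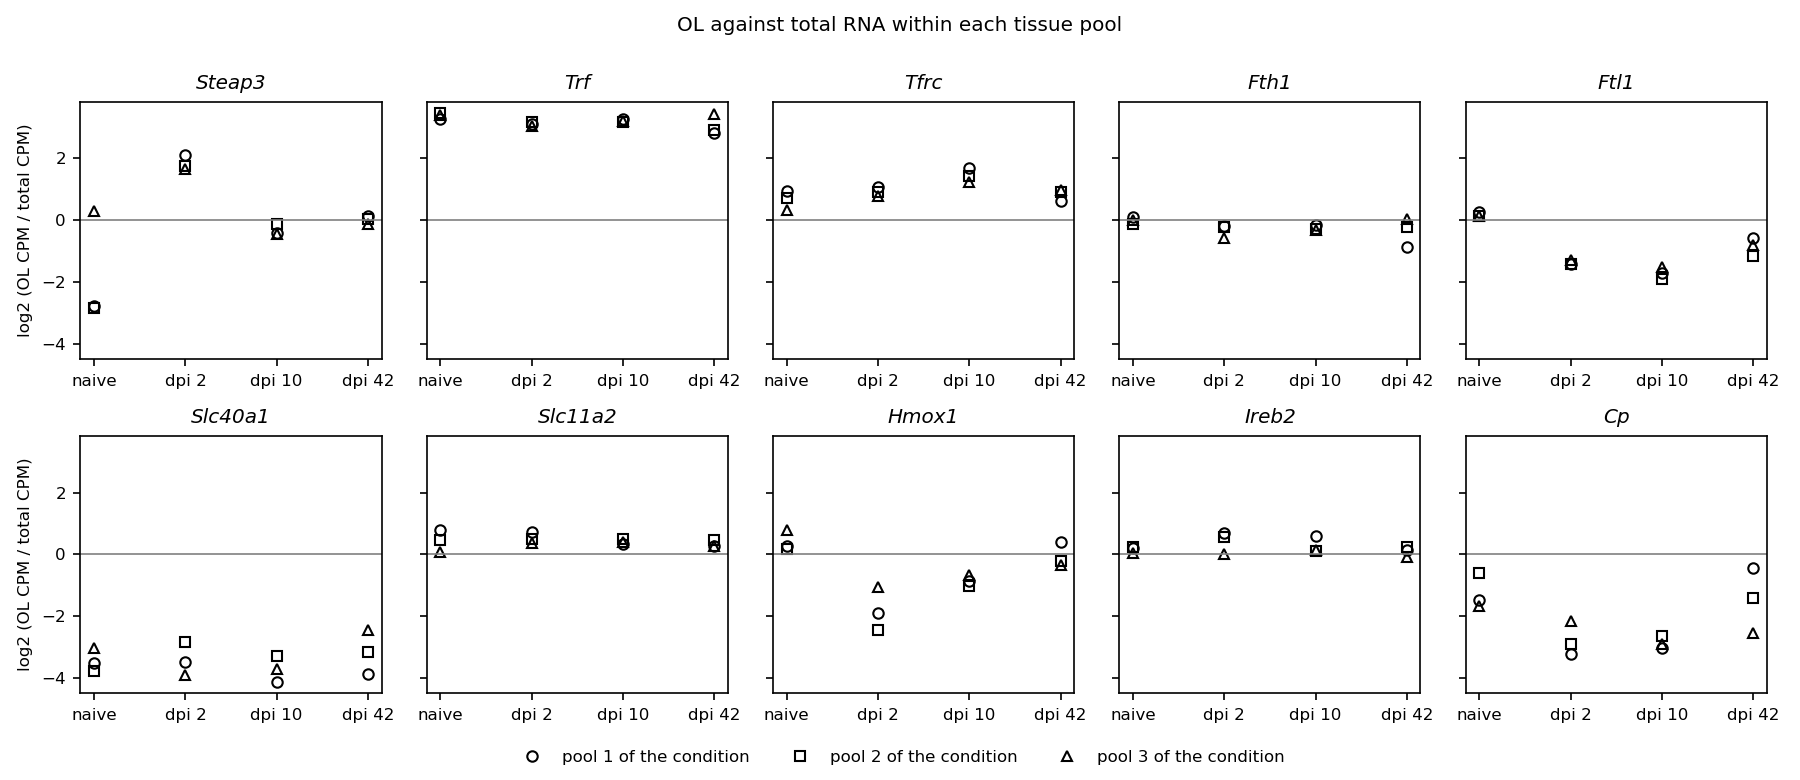
Log2 ratio of the OL level to the total RNA level (y axis) of each of the 10 genes within each of the 3 tissue pools of a condition (points), in naive cord and at dpi 2, 10 and 42. Trf lies above 0 and Slc40a1 below 0 in all 12 pools, Steap3 lies above 0 in all dpi 2 pools and in 1 of the 3 naive pools, and Ftl1 lies above 0 in the naive pools only.

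Within each condition, Trf, Tfrc and Slc11a2 were higher and Slc40a1 and Cp lower in OL than in total RNA. In naive cord 3 genes were OL-enriched and 2 were OL-depleted (24.9% and 30.5% of all genes). At dpi 2 there were 5 and 4 (24.8% and 28.8%), with Steap3 and Ireb2 added among the enriched and Ftl1 and Hmox1 among the depleted. The dpi 2 enrichment of Ireb2 (0.46, adjusted p = 0.0237) was lost with another TMM reference (0.33, adjusted p = 0.109), with only the groups compared (adjusted p = 0.106) and without the pool with Y-linked reads (0.40, adjusted p = 0.126). It was also lost without the first (0.24) or the second (0.35) dpi 2 OL library or the third dpi 2 total RNA library (0.42), and with library sizes alone it was -0.11. In naive cord Ireb2 became called without the third OL library (0.43, adjusted p = 0.0491, from 0.17). At dpi 10 there were 3 and 4 (25.2% and 28.8%), and at dpi 42 there were 3 and 3 (24.9% and 28.9%). The OL enrichment of Trf was 3.37 ± 0.13, 3.12 ± 0.13, 3.22 ± 0.13 and 3.05 ± 0.13 on the log2 scale in naive cord and at dpi 2, 10 and 42, and that of Slc40a1 was -3.40 ± 0.33, -3.38 ± 0.32, -3.66 ± 0.32 and -3.08 ± 0.32. With library sizes alone in place of TMM scaling, the median of all genes shifted by -0.50 to -0.57 in these comparisons, and the enrichment of Slc11a2 turned from 0.43, 0.52, 0.40 and 0.32 to -0.088, -0.043, -0.17 and -0.18. The dpi 42 call of Slc11a2 (adjusted p = 0.0499) was lost on leaving out any of the 6 libraries. The ratio holds the share of a transcript that OLs carry, its binding to ribosomes, and any RNA of other cells carried into the OL libraries. These cannot be told apart here. The paper describes an apparent contamination of this kind, with RNA of microglia and macrophages among it, and filtered its OL results for it. No such filter was applied here.

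Successive time points were compared next. From dpi 2 to dpi 10, 4 genes fell in the OL translatome and none rose (background 10.6% fallen and 11.7% risen): Hmox1 by 2.40 ± 0.25, Steap3 by 2.28 ± 0.44, Trf by 1.57 ± 0.12 and Fth1 by 0.57 ± 0.18 on the log2 scale. In total RNA over the same step 4 fell (4.53%), namely Hmox1 (-3.31 ± 0.26), Trf (-1.68 ± 0.12), Fth1 (-0.63 ± 0.18) and Tfrc (-0.63 ± 0.15), while Slc40a1 rose (1.05 ± 0.29, background 3.31%). Steap3 in total RNA did not pass the test (-0.08 ± 0.42, adjusted p = 0.962). Without the dpi 2 pool with Y-linked reads, Fth1 in both kinds of RNA and Slc40a1 in total RNA were no longer called (adjusted p = 0.136, 0.107 and 0.106). These 3 calls were each lost on leaving out any of 5 of the 6 libraries compared, and that of Tfrc without the first or the second dpi 10 library.

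From dpi 10 to dpi 42, Cp rose in the OL translatome (1.31 ± 0.30, adjusted p = 0.0124, background 3.28%), and Ireb2 (-0.64 ± 0.17, adjusted p = 0.0249) and Tfrc (-0.57 ± 0.15, adjusted p = 0.0234) fell (3.9%). In total RNA no gene of the 10 rose (0.0583%) and Ftl1 alone fell (-0.70 ± 0.15, adjusted p = 0.0447, background 0.204%). None of the 3 OL calls held when the 2 OL groups were fitted alone (adjusted p = 0.0604, 0.0704 and 0.0590), or when the first dpi 10, the first dpi 42 or the second dpi 42 OL library was left out. The Ftl1 call was lost on leaving out any of 5 of the 6 total RNA libraries.

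Of a wider list of 51 genes of iron and heme handling, sorted by role, 47 were tested. In the OL translatome 10 rose and 10 fell at dpi 2, 7 rose and 3 fell at dpi 10, and 14 rose and 8 fell at dpi 42. Of all genes tested, 18.4% rose and 20% fell at dpi 2, 9.62% and 8.59% at dpi 10, and 16.2% and 16.9% at dpi 42, so the counts of the list at dpi 2 were close to the background. The median Log2FC of the list was 0, 0.02 and 0.25 (-0.01, 0.02 and 0.23 with groups at 0 counts set to 3 counts per library), beside 0 for all genes. In total RNA 9 rose and 10 fell, 12 rose and 6 fell, and 8 rose and 4 fell (backgrounds 16.4% and 20.8%, 13.9% and 18.2%, and 10.4% and 12.1%), with medians of 0.05, 0.01 and -0.08 beside -0.10, -0.10 and -0.08.

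Among the genes of uptake and reduction, 5 of 14 rose and 1 fell in OL at dpi 2, 6 rose at dpi 10, and 6 rose and 2 fell at dpi 42, against the same backgrounds. Slc39a14, a zinc transporter that also carries iron not bound to transferrin, went from 10.7 CPM in naive OL libraries to 54.3, 33.5 and 35.4 CPM (Log2FC 2.35 ± 0.19, 1.65 ± 0.18 and 1.73 ± 0.18). In total RNA its mean was 33.5 CPM when naive and 69.0, 43.8 and 44.1 CPM at dpi 2, 10 and 42, above the OL mean in each condition. A rise was also called in total RNA at dpi 2 (1.04 ± 0.18). Lcn2, a secreted protein that binds bacterial iron carriers, had 11 counts over the 3 naive OL libraries together against 2531 at dpi 2 and 4518 at dpi 42, ratios of 219 (95% exact counting interval 122 to 439) and 373 (208 to 748) after scaling for library size. The naive OL counts of Lcn2 were 0, 3 and 8, and those at dpi 2 were 427, 180 and 1924, so its libraries spread widely within groups. Its OL counts were 123, 394 and 169 at dpi 10, and 2139, 1866 and 513 at dpi 42. At dpi 2, dpi 10 and dpi 42 these counts stood in the order of the astrocyte marker sums given with Cp. In naive cord only the highest count and the highest sum fell in the same library. The duodenal ferrireductase Cybrd1 rose in OL at dpi 10 (2.13 ± 0.38) and dpi 42 (2.49 ± 0.38), and the ferritin receptor Scara5 rose in OL at dpi 10 (2.35 ± 0.46, with 3 to 8 counts a library when naive and 21 to 42 at dpi 10). The mean of Lcn2 in total RNA was 2.66 CPM when naive, 70.0 at dpi 2 and 46.0 at dpi 42. Its OL means at dpi 2 and dpi 42 were 32.3 and 54.8 CPM. Cybrd1 in total RNA stood at 4.07 CPM when naive, 13.2 at dpi 10 and 8.62 at dpi 42. Its OL means at dpi 10 and dpi 42 were 6.57 and 8.41 CPM. The part of other cells in the changes of these wider list genes was not tested.

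Scara5 also rose in total RNA, from 1.90 CPM to 9.57, 13.6 and 8.78 CPM (Log2FC 2.33 ± 0.40, 2.83 ± 0.40 and 2.20 ± 0.40), as did the metalloreductase Steap4, which belongs to the family of Steap3. Steap4 had 27 counts over the 3 naive total RNA libraries against 1279 at dpi 10 and 1007 at dpi 42, ratios of 42.7 (29.2 to 65.0) and 33.6 (22.9 to 51.2). Slc22a17, a receptor for Lcn2, fell from 571 to 177 CPM in OL at dpi 2 (Log2FC -1.69 ± 0.14) and from 609 to 278, 366 and 438 CPM in total RNA (-1.13 ± 0.14, -0.73 ± 0.14 and -0.48 ± 0.14). The recycling endosome gene Rab11a fell in total RNA at dpi 10 (-0.49 ± 0.10) and dpi 42 (-0.55 ± 0.10).

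Changes were also called for genes of storage and heme handling. Ncoa4, the receptor that sends ferritin to lysosomes for breakdown, fell in OL from 44.0 to 17 CPM at dpi 2 (Log2FC -1.38 ± 0.20) and to 20.1 CPM at dpi 42 (-1.13 ± 0.20), and in total RNA at dpi 2 (-0.83 ± 0.20). Fech, which inserts iron into the heme ring, fell in OL at dpi 2 (-0.95 ± 0.13), and Hmox2, the constitutive heme oxygenase, fell in OL at dpi 10 (-0.43 ± 0.11). In total RNA at dpi 2 the heme synthesis gene Cpox fell (-0.62 ± 0.15).

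Among the genes of iron control, Hfe, which binds transferrin receptors and is known from hereditary iron overload, rose in OL at dpi 2 from 6.44 to 24.1 CPM (Log2FC 1.90 ± 0.24) and in total RNA at dpi 10 (1.52 ± 0.24) and dpi 42 (1.30 ± 0.23). The mean of Hfe in OL was 13.9 CPM at dpi 10 and 16.4 CPM at dpi 42. In total RNA it was 8.71 CPM when naive and 20.8, 25.0 and 21.4 CPM at dpi 2, 10 and 42. Aco1, which encodes the first iron regulatory protein, fell in OL at dpi 10 (-0.35 ± 0.11) and dpi 42, from 85.0 to 48.2 CPM (-0.82 ± 0.12). Hamp, the hormone hepcidin that removes ferroportin from the cell surface, had 0 counts in all libraries together and was not tested.

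**Figure D4:**
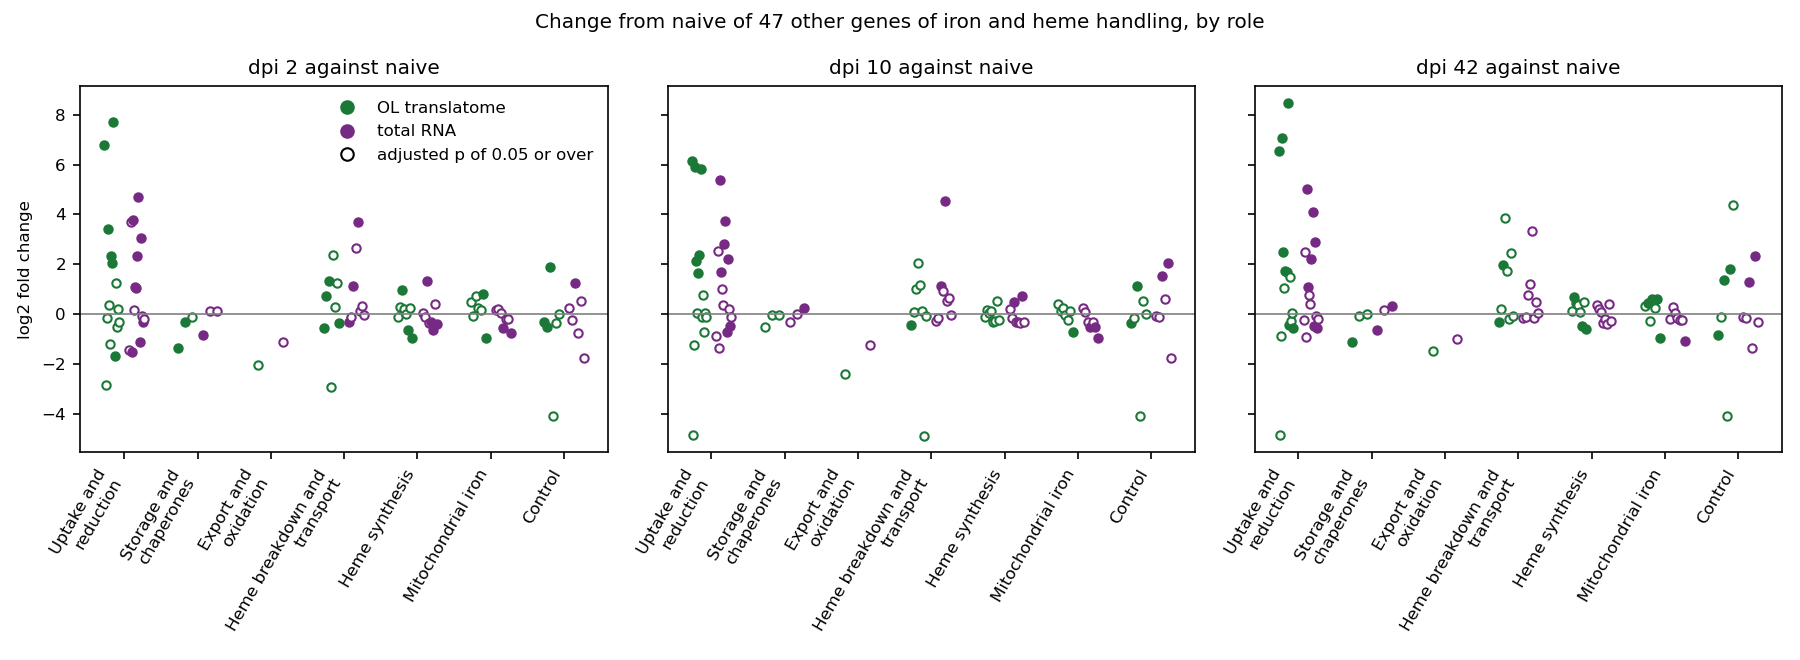
Log2 fold change from naive (y axis) of the 47 other tested genes of iron and heme handling, grouped by role (x axis), in the OL translatome (green) and in total RNA (purple) at dpi 2, 10 and 42; each point is 1 gene and open points had an adjusted p of 0.05 or over. The largest rises are among uptake and reduction genes, and points far from 0 include genes with few counts in a group, whose size is not well fixed.

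Across the 24 libraries, the genes whose log2 level was most like that of Steap3, of 13677 compared with a mean of at least 1 CPM, included Gldn (Pearson r = 0.95), Parvb (0.95) and Pros1 (0.94). These are descriptions over libraries that share groups and pools. Gldn, which encodes gliomedin, known from Schwann cells at nodes of Ranvier, stood at 0.729 CPM in naive OL libraries on average and 21.3 CPM at dpi 2. Among the other 9 iron handling genes, r with Steap3 was highest for Hmox1 (0.76) and Ftl1 (0.64) and lowest for Tfrc (-0.40).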

How the data were processed

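Per the labels and the study's methods, the authors sequenced polyA RNA, checked reads with FastQC 0.10.1, aligned them with STAR to mm10 (GRCm38.p6) and counted reads per gene with HTSeq 0.10.0. The deposited values were raw counts of 24 libraries, and the strand setting and gene annotation were not given in the sources used here. Symbols, lengths and coordinates were taken from GENCODE M21, and the listed gene Hjv was matched under its older symbol Hfe2. Label fields of 2 dpi 42 libraries disagreed on the kind of RNA; their descriptions, which match the table's columns, were followed.

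Genes with at least 10 counts in sum were fitted in 1 model of 8 groups (R 4.3.3, edgeR 4.0.16, quasi-likelihood F test, TMM scaling), with Benjamini-Hochberg adjustment over all genes tested and calls at an adjusted p under 0.05. The standard error was the Log2FC divided by the root of F. Comparisons were each time point against naive in OL and in total RNA, the difference between them, OL against total RNA in each condition, and successive time points. The model was tested on simulated data. Alternatives were DESeq2 1.42.0 (size factors, Wald test), library sizes alone, another TMM reference, other filters, fits of only the groups compared, a length and GC offset (17154 of the tested genes had both), replicate blocks, and leaving out libraries. Fitted values rest on 3 libraries a group, and intervals cover counting error only.

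OL and total RNA libraries of a pool share tissue, by the tissue numbers in the column names. Their deviations from group means correlated at 0.13 to 0.24 in naive, 0.13 to 0.17 at dpi 2, 0.04 to 0.13 at dpi 10 and -0.04 to 0.01 at dpi 42. Between different pools of a condition the values were -0.20 to 0.11, -0.14 to -0.02, -0.09 to 0.01 and -0.05 to 0.03 in that order. At dpi 42 the ranges overlapped, so the pairing there rests on the column names alone.

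The members, gene lists and marker lists were chosen with earlier results of these data known. Named from the wider list were, for each change from naive, the 3 risen and 3 fallen called genes with the smallest p (some are given at fewer comparisons than they were called in), plus those among the 5 genes closest to Steap3; a few genes that these rules or the marker lists name are not reported here, and marker sums leave them out; Hamp was added after its values were seen.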

Additional observations from a re-analysis of the deposited data

Results flagged for a closer look

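Differences between OL and total RNA changes, and between time points, that passed the interaction or contrast test are listed here with their Log2FC. The change from naive differed between OL and total RNA at dpi 2 for Steap3 (2.93), Ftl1 (-1.56), Hmox1 (-2.26) and Cp (-1.52), at dpi 10 for Tfrc (0.81), Ftl1 (-1.89), Hmox1 (-1.35) and Cp (-1.61), and at dpi 42 for Ftl1 (-1.03). From dpi 2 to dpi 10 the OL translatome differed for Steap3 (-2.28), Trf (-1.57), Fth1 (-0.57) and Hmox1 (-2.40), and total RNA differed for Trf (-1.68), Tfrc (-0.63), Fth1 (-0.63), Slc40a1 (1.05) and Hmox1 (-3.31). From dpi 10 to dpi 42 the OL translatome differed for Tfrc (-0.57), Ireb2 (-0.64) and Cp (1.31), and total RNA differed for Ftl1 (-0.70). Groups of 3 libraries are too small for a test of single libraries that stand apart.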

How the results depend on the processing

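Of the 170 Log2FCs of the 10 genes over 17 comparisons, 165 kept their side of the threshold, with no called value turned in sign, with DESeq2's Wald test, 167 with DESeq2's size factors, 168 with filterByExpr, 169 without a filter, 160 with another TMM reference, 153 with the length and GC offset, 150 with library sizes alone and 149 with only the groups compared. Among these, values called in neither fit changed sign 4, 4, 0, 0, 8, 15, 12 and 4 times in that order. With library sizes alone, OL enrichment turned in sign for Slc11a2 (-0.088 in naive cord, -0.043 at dpi 2, -0.17 at dpi 10 and -0.18 at dpi 42), Ireb2 (-0.11 at dpi 2 and -0.42 at dpi 42), Fth1 (-0.51 in naive cord) and Ftl1 (-0.33 in naive cord). With the length and GC offset, the OL change of Fth1 at dpi 42 was -0.58 (adjusted p = 0.0427). The cause was not tested.

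Counts of the 10 genes called moved as follows. For total RNA from dpi 10 to dpi 42 the count of 1 became 2 with library sizes alone, 2 with another TMM reference, 2 with filterByExpr, 5 with only the groups compared, and 0 with the length and GC offset, with replicate number as a block, or with an absolute Log2FC over 1. For the OL step over the same time the count of 3 became 0 with only the groups compared, 1 with the length and GC offset and 1 with an absolute Log2FC over 1. The differential OL enrichment count at dpi 42 became 2 with another TMM reference. Without both libraries of the second dpi 2 pool, the total RNA count from dpi 2 to dpi 10 went from 5 to 3. An absolute Log2FC over 1 left 4 of 7 in OL and 5 of 8 in total RNA at dpi 2, 3 of 5 for OL enrichment in naive cord, 3 of 6 at dpi 42, and 3 of 5 in total RNA from dpi 2 to dpi 10.

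Of the wider list, the count became 12 in OL at dpi 2, 13 in OL at dpi 42 and 21 in total RNA at dpi 42 with only the groups compared, and 17 in OL at dpi 10 with the length and GC offset. With an absolute Log2FC over 1 it was 9 in OL at dpi 2, 10 in OL at dpi 42, 11 in total RNA at dpi 2 and 9 in total RNA at dpi 10.

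Leaving out 1 library gave 4 to 8 of the 10 genes called for OL enrichment in naive cord (8 without the third OL library), 2 to 4 for differential OL enrichment at dpi 10 (2 without the second naive or the second dpi 10 total RNA library) and 1 to 3 at dpi 42 (3 without the third naive and 2 without the third dpi 42 OL library). It gave 2 to 4 for total RNA from dpi 2 to dpi 10, 0 to 1 for total RNA from dpi 10 to dpi 42 and 0 to 4 for the OL step from dpi 10 to dpi 42. For the wider list it gave 6 to 12 in OL at dpi 10 and 14 to 21 in OL at dpi 42, each lowest without the second naive OL library, and 11 to 16 in total RNA at dpi 10, lowest without the second naive library.

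With tissue pool as a block, OL enrichment of Steap3 in naive cord became called (-1.60) and the differential enrichment of Cp at dpi 2 and dpi 10 was lost (-1.51 and -1.61), with no other call of the 10 genes changed. Replicate numbers across conditions name separate mice and pair nothing; that block lost Cp in OL at dpi 2 (0.81, adjusted p = 0.0508) and Ftl1 in total RNA from dpi 10 to dpi 42 (-0.69, adjusted p = 0.0653).

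Depth limits Slc40a1 in OL libraries (9 to 60 counts). The ferritin levels depend on how reads from their pseudogenes were counted, and the strand setting bears on Cp, Slc11a2 and Ftl1, which lie in part opposite other genes.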
